A study of Homo sapiens with 16 samples.

Results

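RB1 encodes the retinoblastoma protein, a tumour suppressor that holds cells before DNA replication, and the comparison described here set 3 T-ALL cell lines with low signal at an RB1 probe set against 13 lines with high signal. T-ALL, T-cell acute lymphoblastic leukemia, is a cancer of immature T cells. Total RNA from 16 established human T-ALL lines was measured once per line on an Affymetrix U133 Plus 2.0 array, after 24 h of untreated culture at equal density. The members were chosen by the measured intensity of 203132_at, the RB1 probe set with the highest mean: the low lines, below an intensity of 400, were ALL-SIL, HSB-2 and SUP-T11, 3 of 16 lines, and the high lines, above 2000, were CCRF-CEM, DU528, JURKAT, KOPT-K1, LOUCY, MOLT-16, MOLT-4, P12-ICHIKAWA, PEER, PF-382, SKW-3, SUP-T13 and TALL-1. All 16 share the tissue label, the medium and the absence of treatment, and the labels give no genetic manipulation. Each line is 1 culture on 1 array, so every SE and p-value below measures the spread between different lines, which differ in many genes besides RB1, and not the error of repeated measurements. In a bulk culture, fewer cells with a transcript and less of it per cell cannot be told apart.

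The retinoblastoma protein binds E2F transcription factors at the promoters of genes for DNA replication and keeps those genes low until cyclin D with CDK4 or CDK6, and then cyclin E with CDK2, phosphorylate it. The related proteins RBL1 and RBL2 act on the same promoters with the repressor E2Fs, and with the MuvB proteins RBL1 and RBL2 form the DREAM complex, which also holds down genes of mitosis. CDK inhibitors such as the product of CDKN2A stand upstream. RB1 lies in band 13q14, a stretch of chromosome 13 that is lost in several blood cancers together with genes next to it.

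To show what an E2F target looks like, the 100 bases before the start of 5 genes described below are given, 5' to 3' in the direction of the gene, with matches to the searched E2F words (TTTCCCGC, TTTCGCGC, TTTGCCGC and TTTGGCGC, both strands) in capitals.
RBL1 (GRCh38.p14, chr20:37095998-37096097, - strand): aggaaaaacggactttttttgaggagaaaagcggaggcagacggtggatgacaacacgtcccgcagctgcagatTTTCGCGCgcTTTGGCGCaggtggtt
E2F1 (GRCh38.p14, chr20:33686386-33686485, - strand): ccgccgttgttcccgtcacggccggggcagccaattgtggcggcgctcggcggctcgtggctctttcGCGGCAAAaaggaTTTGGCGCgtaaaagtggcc
E2F2 (GRCh38.p14, chr1:23531234-23531333, - strand): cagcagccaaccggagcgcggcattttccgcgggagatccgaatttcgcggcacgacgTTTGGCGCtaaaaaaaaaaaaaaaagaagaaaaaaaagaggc
E2F3 (GRCh38.p14, chr6:20401779-20401878, + strand): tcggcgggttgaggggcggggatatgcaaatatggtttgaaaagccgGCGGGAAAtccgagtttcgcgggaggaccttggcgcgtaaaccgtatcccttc
RFC3 (GRCh38.p14, chr13:33818049-33818148, + strand): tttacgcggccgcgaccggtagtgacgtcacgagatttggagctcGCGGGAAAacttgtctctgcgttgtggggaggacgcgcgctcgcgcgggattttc
Genes of mitosis more often carry the CHR word TTTGAA, shown in capitals before the start of 3 of them.
HMMR (GRCh38.p14, chr5:163460532-163460631, + strand): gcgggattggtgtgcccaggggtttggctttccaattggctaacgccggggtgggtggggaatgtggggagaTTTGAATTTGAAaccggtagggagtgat
PLK1 (GRCh38.p14, chr16:23678789-23678888, + strand): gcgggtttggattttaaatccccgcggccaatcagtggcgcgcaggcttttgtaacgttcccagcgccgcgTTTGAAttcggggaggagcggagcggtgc
PRC1 (GRCh38.p14, chr15:90994536-90994635, - strand): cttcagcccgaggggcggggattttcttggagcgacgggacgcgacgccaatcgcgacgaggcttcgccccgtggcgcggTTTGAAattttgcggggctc
The sequences are from RefSeq. Over windows of 300 bases, reaching from 250 before to 50 after the first start listed for each gene, an E2F word was present in 25 of the 53 G1/S and replication genes with a promoter entry (47.2%), in 6 of 16 genes of the RB and E2F family (37.5%) and in 2 of 22 G2/M genes (9.1%), against 3.3% of all 27305 promoters. Among 10726 promoters of the genes tested below, 5.2% held an E2F word. The CHR word was present in 17 of 22 G2/M genes (77.3%) and in 2 of 53 G1/S genes (3.8%), against 15.4% of all promoters and 10.2% of those of the genes tested. The words do not overlap each other, and a match describes letters in a window, not a bound site.

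The label was checked first, without a test, because 203132_at set the sides. Its intensity was 3.1 in ALL-SIL, 2.7 in HSB-2 and 324 in SUP-T11, against 2169 in MOLT-16 to 6298 in JURKAT, median 3849.6, in the high lines. SUP-T11 was the line just inside the limit and MOLT-16 the line just outside it. ALL-SIL and HSB-2 were near the bottom of the scale, while SUP-T11 kept 0.0843 of the median of the high lines. A second RB1 probe set, 211540_s_at, was not used to choose the lines. It read 838 in ALL-SIL, 1139 in HSB-2 and 23.1 in SUP-T11, against 117 in MOLT-16 to 362 in PF-382, median 211, in the high lines. SUP-T11 was below every high line at both probe sets. ALL-SIL and HSB-2, the lowest lines at 203132_at, were above every high line at 211540_s_at, at 3.97 and 5.40 times the median of the high lines. Within the 13 high lines the probe sets moved together (Pearson r = 0.871, 13 lines, measured on the same arrays). Low RB1 signal in ALL-SIL and HSB-2 therefore held for 203132_at alone, and the groups are called here the low and high lines for that probe set, not lines without RB1. Which part of the transcript each probe set reads was not analysed here, and no protein was measured.

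**Figure D1:**
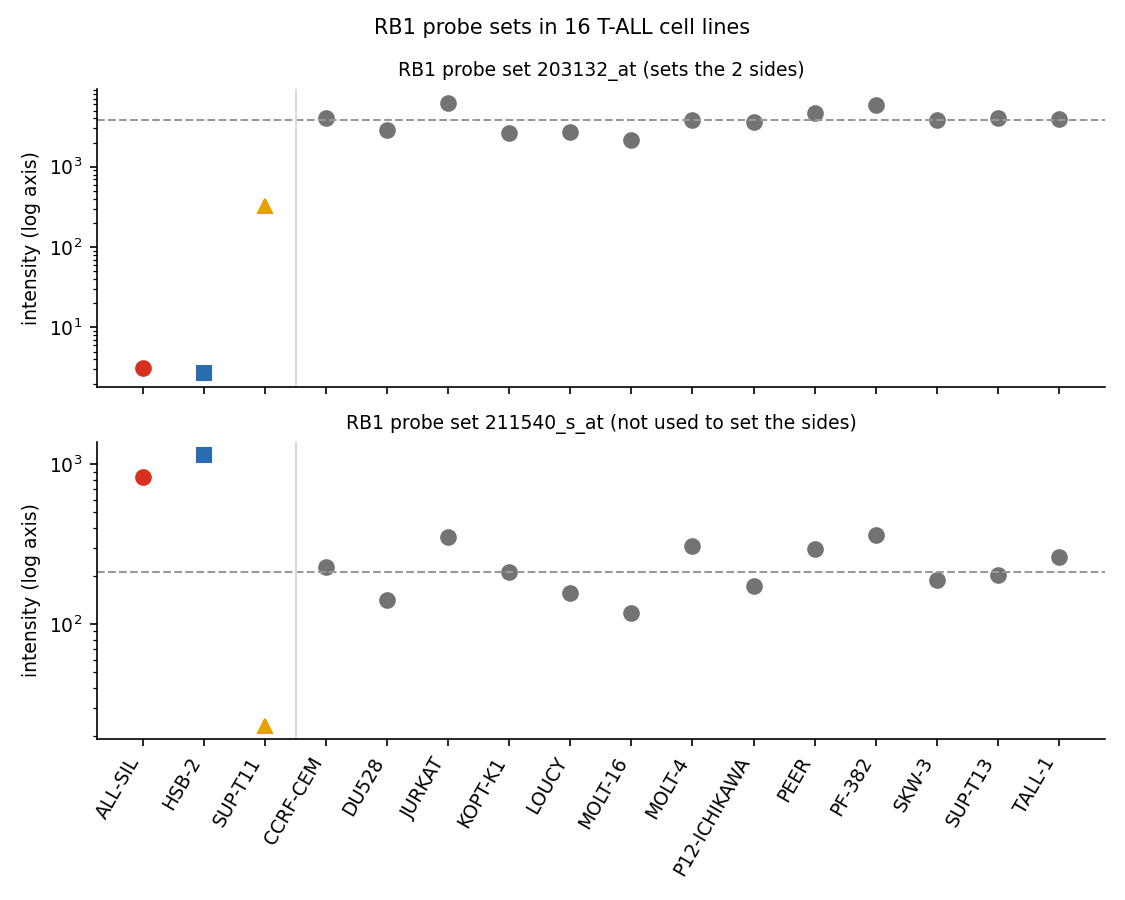
Intensity (log axis) of the RB1 probe sets in each of the 16 lines, the 3 low lines left of the vertical line and the 13 high lines right of it, with the median of the high lines dashed; 1 point is 1 array. At 203132_at the low lines lie at 3.1, 2.7 and 324, under the lowest high line at 2169; at 211540_s_at ALL-SIL and HSB-2 lie at 838 and 1139, above the highest high line at 362, and SUP-T11 at 23.1 lies below all of them.

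The tissue label held in the low lines: 11 of 12 listed T-lineage markers were measured, and their summed intensity was 42368 in ALL-SIL, 46627 in HSB-2 and 38758 in SUP-T11, against 13840 to 51015 in the high lines. Such a sum is carried by the brightest markers. CD2 read 35.4 in ALL-SIL, under the table median, 207.5 in HSB-2 and 505.2 in SUP-T11, against 11.1 in DU528 to 5051 in SKW-3. Summed intensities of other cell types stayed low. In ALL-SIL, HSB-2 and SUP-T11, in that order, the 6 myeloid markers summed to 101, 106 and 93, against 65 to 810 in the high lines, and the 6 B-cell markers to 204, 215 and 350, against 174 to 2244. The 5 erythroid and megakaryocytic markers summed to 236, 258 and 194, against 161 to 858. No member of these lists exceeded 169, which is 4 times the table median, in a low line. Of 8 stromal and endothelial markers, summing to 1128, 1435 and 305 against 289 to 4507, 2 did, PDGFRB and PECAM1. Array medians were 38.1, 44.6 and 44.2 in the low lines, against 37.6 to 45.0, and the ACTB control probe set at the 3' end over that at the 5' end was 1.64, 1.54 and 1.59, against 1.44 to 2.03. The GAPDH ratio was 0.980, 0.931 and 1.05, against 0.904 to 0.979, so SUP-T11 and, narrowly, ALL-SIL were above every high line, and its part in the results was not tested.

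Few differences over all genes were shared by the 3 low lines. Differences are given as low minus high lines on the log2(intensity + 16) scale, which understates changes of dim genes, each gene represented by 1 probe set. Of 13328 genes tested with limma over the 16 lines, 2 passed an adjusted p of 0.05 (0.015%): 1 was higher in the low lines (0.0075%) and 1 lower (0.0075%). At an unadjusted p below 0.05, 494 genes were higher (3.71%) and 550 lower (4.13%), in all 7.83% of the genes. Signals under the table median of 42.4 are too dim to order, so a line was counted as below the high lines only where all 13 were brighter than that, and as above them only where it was brighter itself. All 3 low lines lay below all 13 high lines in 22 genes (0.165%) and above them in 23 (0.173%). Single lines lay outside more often, with ALL-SIL below in 5.94% and above in 8.70% of the genes tested, HSB-2 in 3.2% and 7.26%, and SUP-T11 in 11.4% and 11%.

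The gene that was lower, RCBTB2, a protein with RCC1 repeats and a BTB domain, is a neighbour of RB1 on chromosome 13. Its intensity was 20 in ALL-SIL, 9.1 in HSB-2 and 369.6 in SUP-T11, against 892 in TALL-1 to 8111 in SUP-T13, median 3298, in the high lines. All 3 low lines were below all 13 high lines, with ALL-SIL and HSB-2 near background and SUP-T11 between them and the high lines. The difference was -5.64 (SE 0.70, 3 against 13 lines, limma adjusted p = 0.00351). The exact two-sided permutation p was 0.00179, the smallest that the 560 ways of choosing 3 of 16 lines allow. A second RCBTB2 probe set, 1561585_at, read 21.4 in ALL-SIL, 31.5 in HSB-2 and 29.7 in SUP-T11, against 1.8 to 18.4, median 10.2, in the high lines, so every line was under the table median there and the probe set gives no order of the lines.

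The gene that was higher, ZNF826P, is a zinc finger pseudogene on chromosome 19. Its intensity was 150.1 in ALL-SIL, 132 in HSB-2 and 429 in SUP-T11, against 8.9 in PEER to 45.6 in SKW-3, median 17.3, in the high lines, with no overlap between the groups. The difference was 2.63 (SE 0.31, limma adjusted p = 0.00294, exact permutation p = 0.00179). The 3 low lines held the 3 highest values, and through them ZNF826P passed the filter, a 3rd highest value above the table median. With no filter ZNF826P was also called (limma adjusted p = 0.00259). Its second probe set, 1569191_at, also separated the groups, at 138 in ALL-SIL, 223 in HSB-2 and 158 in SUP-T11, against 5.6 to 26.4, median 11.8, in the high lines. The suffix _x_at of the first probe set, 1560853_x_at, marks probes that can bind related transcripts, and zinc finger genes form a large family, so the source of that signal is uncertain. With _x_at probe sets left out, the ZNF826P difference was 2.69 (limma adjusted p = 8.53e-06).

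The 40 measured genes nearest RB1, 20 on each side in the RefSeq gene order, gave a median difference of -0.28, against 0.00 over all genes tested, with 32 of 40 below 0. The 29 that passed the filter on dim genes had a median of -0.46, and 11 were too dim to test. RCBTB2 was the only neighbour called, 7 of the 29 were lower at an unadjusted p below 0.05, where 4.13% of all genes tested were, and none was higher. All 3 low lines were below all high lines in 2 of the 29 (6.9%), namely RCBTB2 and KPNA3. The share was 2.48% over the chromosome 13 genes tested and 0.165% over all genes tested. The lines differed from each other along the stretch: SUP-T11 had a median of -0.63 relative to the mean of the high lines and was below all of them in 12 of 29 neighbours (41.4%, against 11.4% of all genes tested). The median was -0.18 in ALL-SIL, with 4 of 29 below (13.8%, against 5.94%), and -0.19 in HSB-2, with 3 of 29 below (10.3%, against 3.2%). Without SUP-T11 the median over the neighbours was -0.18.

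**Figure D2:**
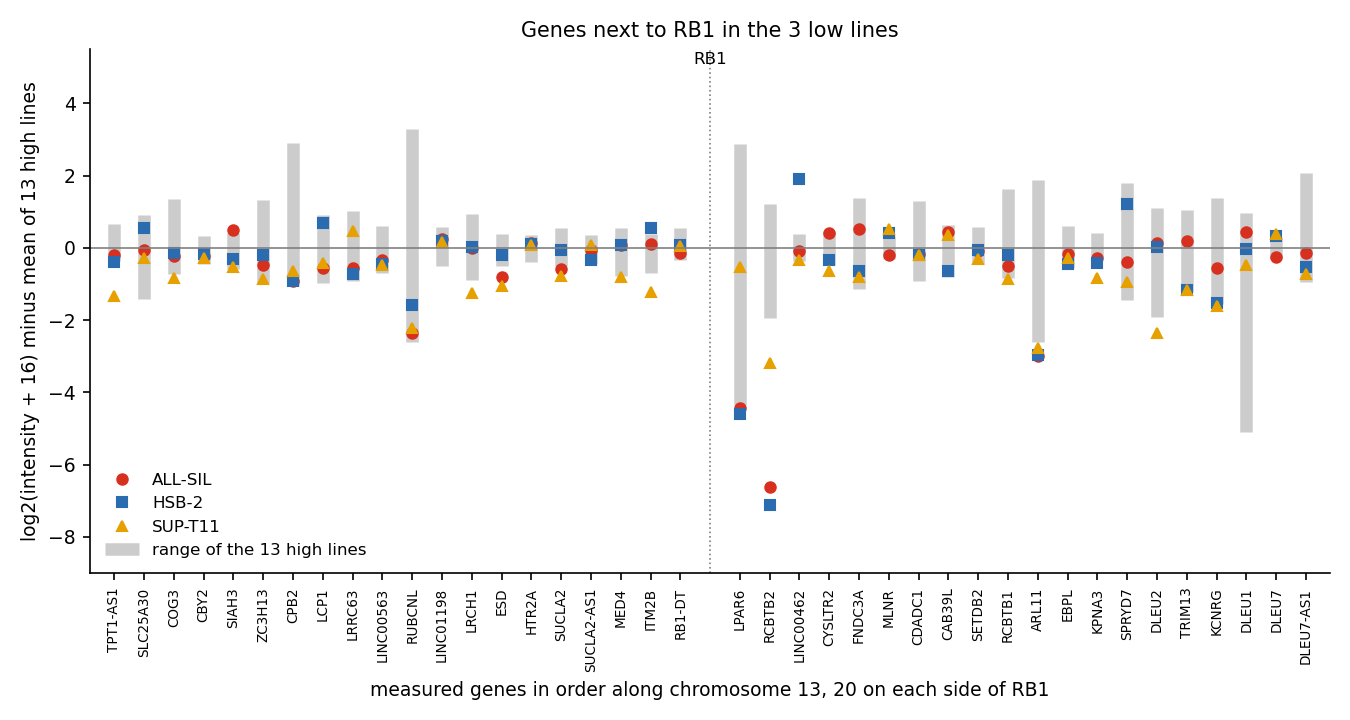
Each of the 40 measured neighbours of RB1, in gene order along chromosome 13, as log2(intensity + 16) minus the mean of the 13 high lines (vertical axis); coloured points are the 3 low lines, grey bars the range of the 13 high lines, and the dotted line marks RB1. RCBTB2 lies below its grey bar in all 3 low lines, LPAR6 is at background in ALL-SIL and HSB-2 but not in SUP-T11, and most other points lie near 0, those of SUP-T11 lowest.

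Next to RB1 on the side before it, signal of ITM2B and MED4 in ALL-SIL and HSB-2 was within or above the range of the high lines. This did not hold for every neighbour: ESD and SUCLA2, given below, had ALL-SIL below all high lines. ITM2B, a membrane protein gene 2 places before RB1, read 6740.3 in ALL-SIL, 9293 in HSB-2 and 2677 in SUP-T11, against 3930.2 in MOLT-16 to 8264 in TALL-1, median 6904, in the high lines: HSB-2 was above all high lines and SUP-T11 below all of them. Its second probe set, 217731_s_at, gave the same order, with 5994 in ALL-SIL, 8648 in HSB-2 and 2703 in SUP-T11, against 3183 to 7526, median 5876, in the high lines. MED4, a subunit of the Mediator complex, read 3229.8 in ALL-SIL, 3254 in HSB-2 and 1739 in SUP-T11, against 1779 in MOLT-16 to 4499.9 in TALL-1, median 3101, in the high lines, so that only SUP-T11 was outside the high lines. The divergent transcript RB1-DT was under the filter, at 21.6 in ALL-SIL, 27.7 in HSB-2 and 26.6 in SUP-T11, against 16.6 to 44.5 in the high lines.

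On the other side LPAR6, a receptor for lysophosphatidic acid whose gene lies within RB1 in the annotation, read 6.4 in ALL-SIL, 3.8 in HSB-2 and 317 in SUP-T11, against 7.8 in MOLT-16 to 3521 in LOUCY, median 710.4, in the high lines. ALL-SIL and HSB-2 were at background, as were MOLT-16 and P12-ICHIKAWA, 2 lines with high RB1 signal, at 7.8 and 8.2, and SUP-T11 was inside the range. The difference of -3.19 (SE 1.55) did not pass (limma adjusted p = 0.649, exact permutation p = 0.0661). Next to RCBTB2, the non-coding LINC00462 was under the filter, at 11.2 in ALL-SIL, 93.4 in HSB-2 and 7.1 in SUP-T11, against 6.6 to 21.9 in the high lines, so HSB-2 was the only line of the 16 above the table median. CYSLTR2 was under the filter too, and beyond it FNDC3A read 1623 in ALL-SIL, 712 in HSB-2 and 631 in SUP-T11, against 492 in MOLT-16 to 2925 in TALL-1, median 1048, in the high lines, with all 3 lines inside the range.

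Farther out, ARL11, an ARF-like GTPase, read 3.5 in ALL-SIL, 3.8 in HSB-2 and 6.6 in SUP-T11, against 9.6 in TALL-1 to 555 in P12-ICHIKAWA, median 219.6, in the high lines. The low lines were under the table median, but so were TALL-1, PEER at 14.1 and LOUCY at 36.1, and these signals are too dim to order. The difference of -2.92 (SE 0.76, limma adjusted p = 0.474) did not pass and moved with the constant added before the logarithm, to -1.685 with 64 and -4.538 with 1. KPNA3, an importin that carries proteins into the nucleus, read 2217 in ALL-SIL, 2019 in HSB-2 and 1514 in SUP-T11, against 2271 in PF-382 to 3633 in LOUCY, median 2816, in the high lines. The groups were adjacent but did not overlap, with a difference of -0.52 (SE 0.15, limma adjusted p = 0.474, exact permutation p = 0.00179). ESD, esterase D, the enzyme once used as a linkage marker of the retinoblastoma locus, read 4268 in ALL-SIL, 6555 in HSB-2 and 3600.4 in SUP-T11, against 5266 in DU528 to 9719.8 in TALL-1, median 7749, in the high lines. ALL-SIL and SUP-T11 were below all high lines and HSB-2 was inside the range (difference -0.69, SE 0.16, limma adjusted p = 0.449, exact permutation p = 0.00536). With the ESD probe set of highest SD the difference was -1.348 (limma adjusted p = 0.404).

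Several other neighbours had their lowest low-line value in SUP-T11. DLEU2, the host transcript of the microRNA genes MIR15A and MIR16-1, read 1283 in ALL-SIL, 1188 in HSB-2 and 215 in SUP-T11, against 300.3 in TALL-1 to 2525 in JURKAT, median 1279, in the high lines. KCNRG, which overlaps TRIM13, read 119 in ALL-SIL, 52.7 in HSB-2 and 49.6 in SUP-T11, against 51.8 in DU528 to 502 in TALL-1, median 219.8, in the high lines, and TRIM13 read 946 in ALL-SIL, 361 in HSB-2 and 360.0 in SUP-T11, against 342 in DU528 to 1728 in TALL-1, median 769.7, in the high lines. SUP-T11 was below all high lines at DLEU2 and KCNRG, and none of the 3 genes passed (limma adjusted p = 0.802, 0.633 and 0.725). SUCLA2, a mitochondrial enzyme subunit, read 1246 in ALL-SIL, 1771 in HSB-2 and 1068 in SUP-T11, against 1303 in MOLT-16 to 2718 in JURKAT, median 1932, in the high lines, with ALL-SIL and SUP-T11 lowest (difference -0.48, limma adjusted p = 0.63). SLC25A30, LCP1, CAB39L and SETDB2 had all 3 low lines inside the range of the high lines, with differences of 0.07, -0.10, 0.05 and -0.15.

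Low signal on chromosome 13 was not limited to the neighbours of RB1. Among its 242 genes tested, neighbours included, all 3 low lines were below all high lines in 6 (2.48%, against 0.165% of all genes tested). At an unadjusted p below 0.05, 40 of the 242 were lower and 5 higher, where 4.13% of all genes tested were lower and 3.71% higher. Over the whole of chromosome 13 SUP-T11 was low as well. Of its 242 genes tested, SUP-T11 was below all high lines in 79 (32.6%), ALL-SIL in 31 (12.8%) and HSB-2 in 15 (6.2%), against 11.4%, 5.94% and 3.2% of all genes tested. The median over these genes, relative to the mean of the high lines, was -0.48 in SUP-T11, -0.21 in ALL-SIL and -0.03 in HSB-2, against -0.31 to 0.40 in single high lines. In SUP-T11 the 123 genes before RB1 had a median of -0.72 and the 119 after it -0.21. In the same parts ALL-SIL had -0.19 and -0.23, and HSB-2 -0.05 and -0.02. Chromosome 13 was not alone in this among the 22 autosomes. In SUP-T11 the medians of chromosomes 10, 17 and 22 were also below those of every high line, at -0.584, -0.195 and -0.177, against lowest high lines at -0.402, -0.087 and -0.146. In ALL-SIL those of chromosomes 2 and 22 were, at -0.205 and -0.322, against -0.139 and -0.146, and those of chromosomes 6, 8, 15, 18 and 21 were above every high line. HSB-2 was inside the range on every autosome. DNA copy number was not measured, and its part in these levels was not tested.

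No partner of RB1 was called, and their differences lay on both sides of 0. The RB and E2F family of 18 genes, without RB1, had a median difference of -0.10, with 8 above and 10 below 0. At an unadjusted p below 0.05, 2 were lower, where 4.13% of all genes tested were. Among the pocket proteins, RBL1 read 664 in ALL-SIL, 427 in HSB-2 and 545 in SUP-T11, against 387 in LOUCY to 1521 in TALL-1, median 861, in the high lines, and RBL2 read 3408 in ALL-SIL, 2865 in HSB-2 and 5619.7 in SUP-T11, against 1622 in LOUCY to 4455 in SUP-T13, median 2883, in the high lines. RBL1 had all 3 low lines inside the range (-0.57, SE 0.32, limma adjusted p = 0.695), while RBL2 was above all high lines in SUP-T11 (0.53, SE 0.29, limma adjusted p = 0.687).

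Of the activator E2Fs, whose promoters are shown above, E2F1 read 653 in ALL-SIL, 524 in HSB-2 and 387 in SUP-T11, against 310.0 in SKW-3 to 666 in TALL-1, median 542, in the high lines, a difference of 0.02 (95% interval -0.48 to 0.52). E2F2 read 2219.7 in ALL-SIL, 948 in HSB-2 and 3379.5 in SUP-T11, against 611 in JURKAT to 3093 in SKW-3, median 1314, in the high lines, and was above all high lines in SUP-T11 (0.62, SE 0.46, limma adjusted p = 0.79). E2F3 read 3939 in ALL-SIL, 2830.4 in HSB-2 and 2287 in SUP-T11, against 1719 in MOLT-16 to 3849 in LOUCY, median 2738, in the high lines, with ALL-SIL just above the highest high line (0.06, 95% interval -0.35 to 0.47). SUP-T11 was thus the highest low line at E2F2 and the lowest at E2F1 and E2F3.

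Repressor E2Fs and the DREAM subunits were mostly inside the range of the high lines. E2F6, which represses without pocket proteins, had one of the 2 unadjusted p-values below 0.05, at 496 in ALL-SIL, 438 in HSB-2 and 389 in SUP-T11, against 373 in SUP-T13 to 1104 in LOUCY, median 739, in the high lines (-0.61, SE 0.28, limma adjusted p = 0.63). The other was MYBL2, an activator of mitotic genes and itself an E2F target, at 656 in ALL-SIL, 1219.9 in HSB-2 and 1060.4 in SUP-T11, against 834 in DU528 to 2109.5 in PF-382, median 1626, in the high lines (-0.65, SE 0.25, limma adjusted p = 0.586). Without ALL-SIL the difference of MYBL2 was -0.394. Both had at least 2 of the 3 low lines inside the range of the high lines. The differences of E2F4, E2F5, E2F7 and E2F8 were -0.18, -0.53, -0.15 and -0.30, and those of LIN9, LIN37, LIN52 and LIN54 were 0.27, 0.24, 0.09 and -0.05. TFDP2, a dimer partner of E2Fs, read 6148 in ALL-SIL, 1359 in HSB-2 and 1674 in SUP-T11, against 1373 in DU528 to 8964 in P12-ICHIKAWA, median 5183, in the high lines (-0.94, limma adjusted p = 0.687).

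Of the kinases that act on the retinoblastoma protein, CDK6 separated SUP-T11 from the other low lines, and CDK4 and CDK2 did not. CDK6, the partner of D cyclins, read 11104 in ALL-SIL, 9372 in HSB-2 and 10.2 in SUP-T11, against 6779 in MOLT-16 to 13685 in MOLT-4, median 9443, in the high lines. SUP-T11 alone was at background, and at each of 6 further CDK6 probe sets it was below every high line as well, with values of 1.8 to 21.7. The difference of -2.77 had a limma adjusted p of 0.602, and without SUP-T11 it was 0.095. CDK4 read 3649 in ALL-SIL, 3585 in HSB-2 and 2513 in SUP-T11, against 2412 in TALL-1 to 5494 in MOLT-16, median 3911, in the high lines, all inside the range. CDK2 read 2136 in ALL-SIL, 2273 in HSB-2 and 1399.9 in SUP-T11, against 1022 in LOUCY to 2218 in CCRF-CEM, median 1722, in the high lines, with HSB-2 just above the highest high line. CCND3, cyclin D3, read 7606 in ALL-SIL, 5424 in HSB-2 and 1166 in SUP-T11, against 2639 in LOUCY to 8435 in TALL-1, median 5538, in the high lines, and SUP-T11 was again below all high lines. CCND2 read 27.8 in ALL-SIL, 8.8 in HSB-2 and 1611 in SUP-T11, against 5.2 in CCRF-CEM to 6607 in DU528, median 175, in the high lines, where the high lines spanned the whole scale. CCND1 was under the filter.

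CDKN2A, which encodes inhibitors of CDK4 and CDK6 and of MDM2, read 21.0 in ALL-SIL, 26.9 in HSB-2 and 3675 in SUP-T11, against 8.3 in CCRF-CEM to 3198 in LOUCY, median 31.2, in the high lines. SUP-T11 was above all high lines, among which LOUCY, TALL-1 and KOPT-K1 were at 3198, 2296 and 1259 and the other 10 at 50.8 or less. The line below the high lines at both RB1 probe sets was therefore also the line with the highest CDKN2A and with CDK6 at background, whereas in ALL-SIL and HSB-2 CDK6 was inside the range of the high lines and CDKN2A was near background. The difference of 0.72 (SE 1.63, limma adjusted p = 0.941) did not pass, and without SUP-T11 it was -1.45. CDKN1A, the p53-induced inhibitor, read 3.1 in ALL-SIL, 2767 in HSB-2 and 6.3 in SUP-T11, against 4.1 in MOLT-16 to 3238 in DU528, median 49.4, in the high lines, so HSB-2 was the only low line above background. CDKN1B, an inhibitor of CDK2, read 1912 in ALL-SIL, 2003 in HSB-2 and 1219 in SUP-T11, against 526 in LOUCY to 2718 in TALL-1, median 1540.3, in the high lines, with no low line outside the range.

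**Figure D3:**
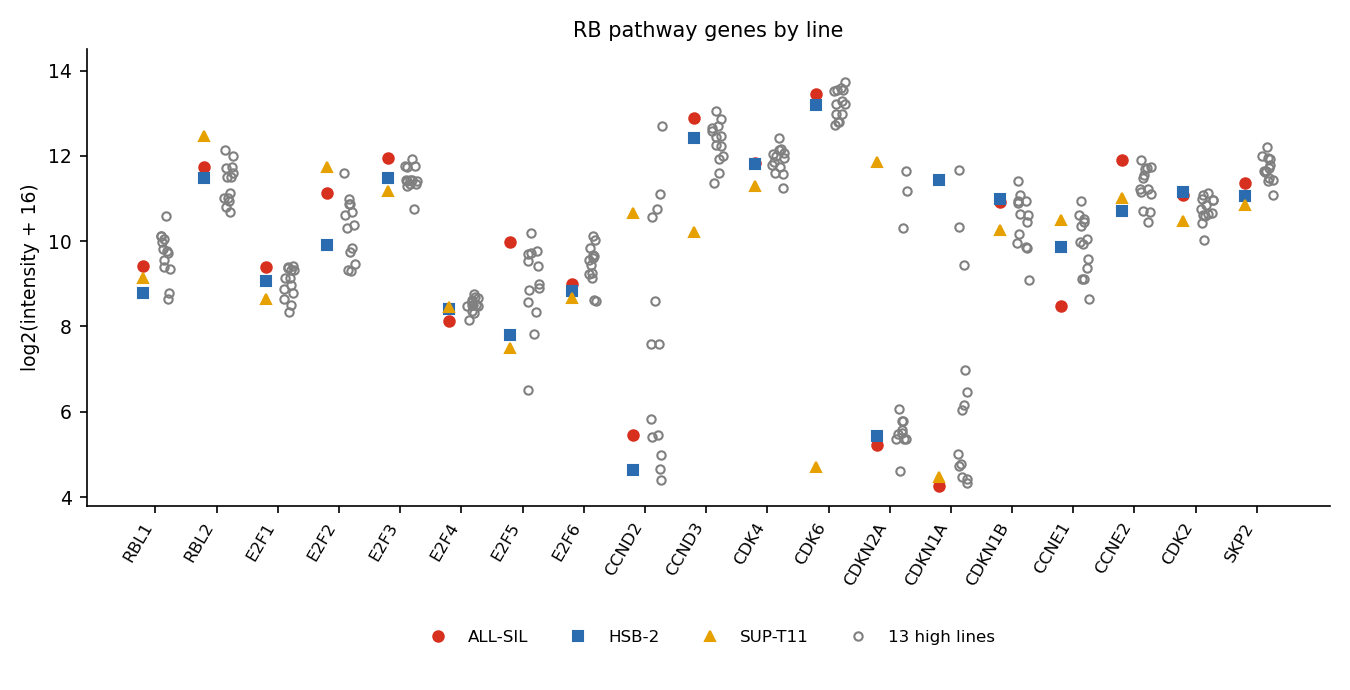
log2(intensity + 16) of 19 RB pathway genes, the 3 low lines as coloured points left of the 13 high lines as open circles, 1 point per array; levels are comparable within a gene only. Apart from CDK6, CDKN2A, CDKN1A, CCND2 and CCND3, where the low lines part from each other, the coloured points lie in or next to the range of the circles.

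No cyclin was called. Over 24 measured cyclins the median difference was -0.06, with 10 above and 14 below 0. At an unadjusted p below 0.05, 4.13% of all genes tested were lower, and 2 of the 23 cyclins tested were. These were CCNJ, a little studied cyclin, at 322 in ALL-SIL, 266 in HSB-2 and 146 in SUP-T11, against 297 in SUP-T13 to 746 in LOUCY, median 437, in the high lines (-0.99, SE 0.29, limma adjusted p = 0.474), and CCNH, the partner of CDK7, at 1357 in ALL-SIL, 1988 in HSB-2 and 1342 in SUP-T11, against 1858 in KOPT-K1 to 3462 in MOLT-16, median 2102, in the high lines (-0.57, SE 0.19, limma adjusted p = 0.498). Each had 2 low lines below all high lines and 1 inside. The cyclins of the G1/S step were spread: CCNE1 read 339.8 in ALL-SIL, 919 in HSB-2 and 1432 in SUP-T11, against 386 in MOLT-16 to 1938 in MOLT-4, median 990.1, in the high lines, with ALL-SIL below all of them. CCNE2 read 3812 in ALL-SIL, 1662 in HSB-2 and 2065 in SUP-T11, against 1393 in MOLT-16 to 3843 in SKW-3, median 2391, in the high lines. CCNA2, the S-phase cyclin, read 2687 in ALL-SIL, 2332 in HSB-2 and 1626 in SUP-T11, against 1709.6 in MOLT-16 to 3823 in SKW-3, median 2822, in the high lines, with SUP-T11 lowest (-0.38, SE 0.20, limma adjusted p = 0.68). The mitotic cyclins CCNB1 and CCNB2 differed by -0.31 (95% interval -0.74 to 0.12) and 0.08 (95% interval -0.22 to 0.37).

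Of the 23 measured CDKs and their regulators, with a median difference of -0.05, none was called. At an unadjusted p below 0.05, 1 was higher and 3 were lower, where 3.71% of all genes tested were higher and 4.13% lower. SKP2, the ubiquitin ligase subunit that marks the CDKN1B product for destruction, read 2629 in ALL-SIL, 2123 in HSB-2 and 1817 in SUP-T11, against 2169 in SUP-T13 to 4702 in MOLT-16, median 3211, in the high lines. ALL-SIL was inside the range and the others below it (-0.59, SE 0.18, limma adjusted p = 0.482, exact permutation p = 0.00357). CDK8, a Mediator kinase encoded on chromosome 13, read 946 in ALL-SIL, 941 in HSB-2 and 615 in SUP-T11, against 973 in CCRF-CEM to 2239 in TALL-1, median 1165, in the high lines, with no overlap of the groups (-0.55, SE 0.20, limma adjusted p = 0.549, exact permutation p = 0.00357), and without SUP-T11 the difference was -0.353. It was the 1 gene of the 23 with all 3 low lines below all high lines (4.35%). The share was 0.165% over all genes tested and 2.48% over those on chromosome 13. CDC25B, a phosphatase that activates CDKs, was the only regulator higher at an unadjusted p below 0.05, at 3575 in ALL-SIL, 2100.4 in HSB-2 and 3312 in SUP-T11, against 1144 in PEER to 3958 in KOPT-K1, median 1649, in the high lines (0.77, SE 0.31, limma adjusted p = 0.602).

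The E2F targets of G1/S and replication were not higher as a group in the low lines. All 60 measured members passed the filter; 18 differences were above and 42 below 0, with a median of -0.14, against 0.00 over all genes tested. None was called. At an unadjusted p below 0.05, 1 was higher and 7 were lower, where 3.71% of all genes tested were higher and 4.13% lower. The lines went apart: in ALL-SIL the median was 0.16 relative to the mean of the high lines, and 17 of 60 members were above all high lines (28.3%, against 8.70% of all genes tested) with 2 below. In SUP-T11 the median was -0.39, and 27 of 60 were below all high lines (45.0%, against 11.4%) with 2 above. In HSB-2 the median was -0.12, with 8 below (13.3%, against 3.2%) and 2 above. Without SUP-T11 the median over the list was 0.04, so its sign rested on that line.

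**Figure D4:**
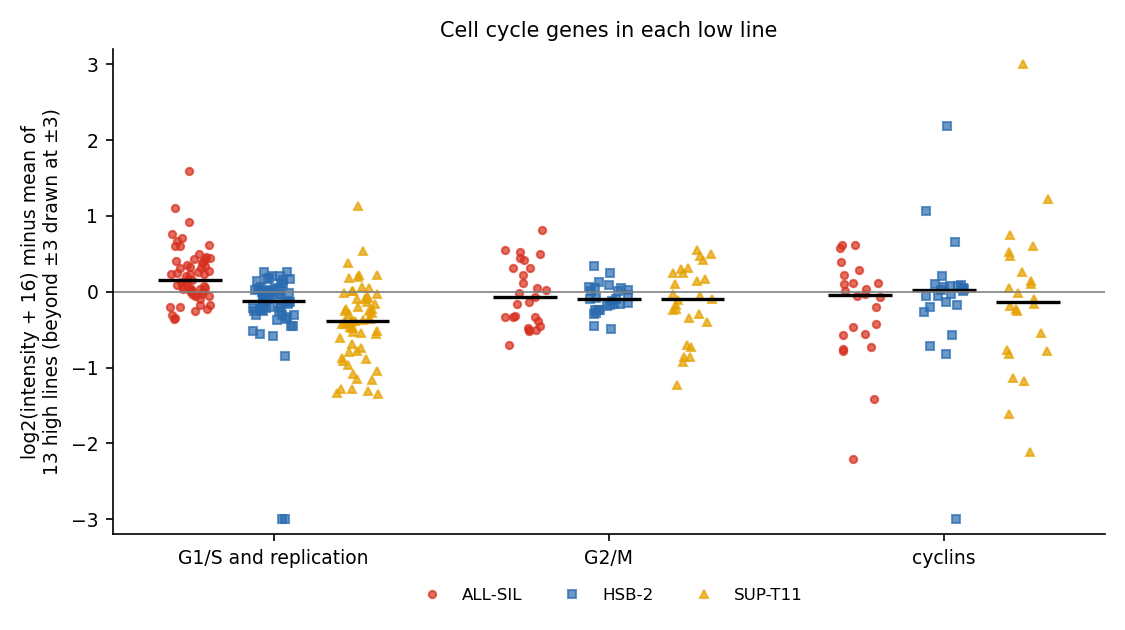
Differences of single genes from the mean of the 13 high lines in log2(intensity + 16) (vertical axis, values beyond 3 in size drawn at 3), for 60 G1/S and replication genes, 27 G2/M genes and 24 cyclins; 1 point is 1 gene in 1 low line and black bars are medians. For G1/S and replication the bars stand at 0.16 in ALL-SIL, -0.12 in HSB-2 and -0.39 in SUP-T11, while for G2/M they lie between -0.10 and -0.06.

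Among the 60 G1/S genes, 1 had all 3 low lines below all high lines (1.67%). The share was 0.165% over all genes tested and 2.48% over those on chromosome 13. That G1/S gene was RFC3, a subunit of the clamp loader whose promoter word is shown above. It read 2625 in ALL-SIL, 2301 in HSB-2 and 1586 in SUP-T11, against 2701 in MOLT-16 to 4158 in TALL-1, median 3591, in the high lines, and lies on chromosome 13 (-0.67, SE 0.15, limma adjusted p = 0.449, exact permutation p = 0.00179). The members with the largest differences rested on HSB-2 alone. MSH6, a mismatch repair gene, read 4349.9 in ALL-SIL, 5.8 in HSB-2 and 3668 in SUP-T11, against 2098 in JURKAT to 4752 in LOUCY, median 3962, in the high lines. TK1, thymidine kinase, read 2374 in ALL-SIL, 23.8 in HSB-2 and 587 in SUP-T11, against 254 in PF-382 to 1947 in MOLT-16, median 877, in the high lines. Further probe sets of both genes showed HSB-2 low, at 7.6 for MSH6 (211450_s_at, 1056 in ALL-SIL and 825 in SUP-T11, against 398 to 1085 in the high lines) and at 43.1 for TK1 (202338_at, against 235 to 1614). CASP8AP2, a factor of histone gene expression, was the member higher at an unadjusted p below 0.05, at 1877 in ALL-SIL, 1130.4 in HSB-2 and 2427 in SUP-T11, against 622 in PEER to 1586 in P12-ICHIKAWA, median 1161, in the high lines (0.64, SE 0.27, limma adjusted p = 0.602). ORC1, the origin recognition subunit, read 872 in ALL-SIL, 646 in HSB-2 and 304 in SUP-T11, against 549.8 in JURKAT to 1117 in MOLT-16, median 806, in the high lines, with SUP-T11 lowest. EZH2, the Polycomb methyltransferase, read 3536 in ALL-SIL, 2144 in HSB-2 and 2413 in SUP-T11, against 12.2 in LOUCY to 3768 in MOLT-4, median 2824, in the high lines: its positive difference of 0.50 came with LOUCY near background among the high lines, where the next lowest line was at 1577.

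Genes of G2 and mitosis had medians slightly below 0 in all 3 low lines. The 27 members had a median difference of -0.14, as the G1/S list had, with 8 above and 19 below 0. None was called. At an unadjusted p below 0.05, 2 were higher and 1 lower, where 3.71% of all genes tested were higher and 4.13% lower. The line medians were -0.06 in ALL-SIL, -0.10 in HSB-2 and -0.10 in SUP-T11. HMMR, PLK1 and PRC1, whose CHR words are shown above, had differences of -0.52, -0.40 and 0.35. PLK1, the mitotic kinase, read 166 in ALL-SIL, 186 in HSB-2 and 124 in SUP-T11, against 117 in LOUCY to 283 in PF-382, median 223, in the high lines, and all low lines were inside the range. PRC1, a midzone protein, read 4100.1 in ALL-SIL, 3463 in HSB-2 and 3589 in SUP-T11, against 2034 in MOLT-4 to 4079.6 in CCRF-CEM, median 2842, in the high lines. NUSAP1, a spindle protein, had an unadjusted p below 0.05, at 8436 in ALL-SIL, 6596 in HSB-2 and 9087 in SUP-T11, against 4088 in MOLT-16 to 7930.4 in SKW-3, median 6514, in the high lines (0.37, limma adjusted p = 0.633). MAD2L1, of the spindle checkpoint, was the one lower, at 4739 in ALL-SIL, 4667 in HSB-2 and 3108 in SUP-T11, against 4204 in LOUCY to 6307 in TALL-1, median 5002, in the high lines (-0.34, limma adjusted p = 0.586). AURKB, a kinase of chromosome segregation, read 3244 in ALL-SIL, 2849.6 in HSB-2 and 1356 in SUP-T11, against 1903 in MOLT-4 to 4174 in DU528, median 3339.6, in the high lines, with SUP-T11 below all of them.

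Among E2F targets that promote cell death, 9 of 12 listed genes were measured, with a median difference of -0.02 and none called. At an unadjusted p below 0.05, 2 were lower, where 4.13% of all genes tested were. PMAIP1, the BH3-only protein NOXA, read 4576 in ALL-SIL, 1455 in HSB-2 and 15.7 in SUP-T11, against 1062 in DU528 to 10838 in LOUCY, median 2785, in the high lines, and SUP-T11 alone was at background. SIVA1, a proapoptotic protein, read 3216 in ALL-SIL, 1667 in HSB-2 and 1178 in SUP-T11, against 1359 in LOUCY to 4846 in CCRF-CEM, median 2922, in the high lines (-0.72, limma adjusted p = 0.63). MAP3K5, a stress kinase, read 14.4 in ALL-SIL, 355 in HSB-2 and 1182 in SUP-T11, against 2.4 in TALL-1 to 322 in SUP-T13, median 138, in the high lines, above all high lines in HSB-2 and SUP-T11 (1.57, SE 1.12, limma adjusted p = 0.778). APAF1, the caspase platform, and CASP8 differed by -0.04 and 0.14.

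Chromatin proteins that bind the retinoblastoma protein had a median difference of 0.01 over 18 measured of 20 listed, with none called. At an unadjusted p below 0.05, 2 were higher and 2 lower, where 3.71% of all genes tested were higher and 4.13% lower. RBBP6, which binds both RB1 and p53 products, had all 3 low lines below all high lines, at 2115 in ALL-SIL, 2236 in HSB-2 and 1933 in SUP-T11, against 2256 in SKW-3 to 3252 in PF-382, median 2685, in the high lines (-0.37, SE 0.11, limma adjusted p = 0.481). It was the 1 gene of the 18 with this pattern (5.56%, against 0.165% of all genes tested). HDAC1, a histone deacetylase recruited by the retinoblastoma protein, read 6906 in ALL-SIL, 11827 in HSB-2 and 7196 in SUP-T11, against 4146 in LOUCY to 7576 in P12-ICHIKAWA, median 5959, in the high lines, with HSB-2 above all of them (0.57, SE 0.19, limma adjusted p = 0.498), and without HSB-2 the difference was 0.318. SMARCA2, a SWI/SNF ATPase, read 2408 in ALL-SIL, 2852 in HSB-2 and 1527 in SUP-T11, against 279 in P12-ICHIKAWA to 2861 in DU528, median 697, in the high lines (1.35, SE 0.62, limma adjusted p = 0.634). RBBP4, a histone-binding subunit, read 4944 in ALL-SIL, 4254.8 in HSB-2 and 3531 in SUP-T11, against 4255.0 in DU528 to 5673 in PEER, median 5172, in the high lines (-0.24, SE 0.10, limma adjusted p = 0.602).

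Over all genes, those with the smallest p-values after the 2 called were not members of the cell cycle lists, apart from RFC3. Among the 12 genes ranked higher, EEIG1 read 991 in ALL-SIL, 1074 in HSB-2 and 1217 in SUP-T11, against 93.0 in TALL-1 to 715 in SUP-T13, median 177, in the high lines, without overlap (2.28, SE 0.43, limma adjusted p = 0.187). LFNG, Lunatic fringe, which modifies NOTCH receptors, read 133 in ALL-SIL, 760.4 in HSB-2 and 1196 in SUP-T11, against 1.5 in TALL-1 to 169 in LOUCY, median 32.0, in the high lines, with ALL-SIL inside the range (3.40, SE 0.74, limma adjusted p = 0.383). KLF3, a Kruppel-like repressor, read 617 in ALL-SIL, 287 in HSB-2 and 1588 in SUP-T11, against 3.7 in SKW-3 to 246 in MOLT-4, median 93.6, in the high lines, without overlap (3.19, SE 0.82, limma adjusted p = 0.474). SPOCK2, a proteoglycan, read 1643 in ALL-SIL, 6791 in HSB-2 and 3536 in SUP-T11, against 46.4 in TALL-1 to 1796 in SKW-3, median 324, in the high lines. PFKL, a phosphofructokinase of glycolysis, read 936 in ALL-SIL, 570.1 in HSB-2 and 922 in SUP-T11, against 242 in KOPT-K1 to 610.0 in LOUCY, median 339.6, in the high lines. The others were ZFP37, CARD19, ZNF467, TBCC, SCAMP5 and AIDA, with differences of 2.83, 1.04, 2.10, 0.71, 0.90 and 0.60 and limma adjusted p-values of 0.187 to 0.449.

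Among the 12 ranked lower, BCL11A, a zinc finger repressor, read 12 in ALL-SIL, 10.8 in HSB-2 and 14.2 in SUP-T11, against 9.9 in DU528 to 5132 in P12-ICHIKAWA, median 1615, in the high lines. The low lines and DU528 were at background while the other 12 high lines read at least 232, and 3 further probe sets gave 4.0 to 47.4 in the low lines (-5.37, SE 1.16, limma adjusted p = 0.371, exact permutation p = 0.00714). ERAP2, an aminopeptidase that trims peptides for HLA class I, read 724 in ALL-SIL, 306 in HSB-2 and 309 in SUP-T11, against 584 in LOUCY to 5533 in P12-ICHIKAWA, median 2441, in the high lines (-2.44, SE 0.48, limma adjusted p = 0.256); without LOUCY, the lowest high line, it passed, at -2.60 (limma adjusted p = 0.0151). CENPV read 1667 in ALL-SIL, 2121 in HSB-2 and 592 in SUP-T11, against 2239 in SUP-T13 to 5055 in LOUCY, median 3788, in the high lines, without overlap (-1.44, SE 0.30, limma adjusted p = 0.328). USP18, the protease that removes ISG15, read 25.7 in ALL-SIL, 166 in HSB-2 and 9.3 in SUP-T11, against 131 in P12-ICHIKAWA to 634 in MOLT-4, median 239.6, in the high lines, with HSB-2 inside the range. DPY19L2P2 and DPY19L2P4, pseudogene copies on chromosome 7 that may share signal with their family, were also among the 12, with differences of -1.78 and -1.46 (limma adjusted p = 0.153 and 0.259). DPY19L2P2 was below all high lines in all 3 low lines, while for DPY19L2P4 the low lines and the high line SUP-T13, at 40.6, were too dim to order. ESD and RFC3 are described above, and TMEM263, GRAMD4 and ZBED4 differed by -0.82, -1.58 and -1.23.

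**Figure D5:**
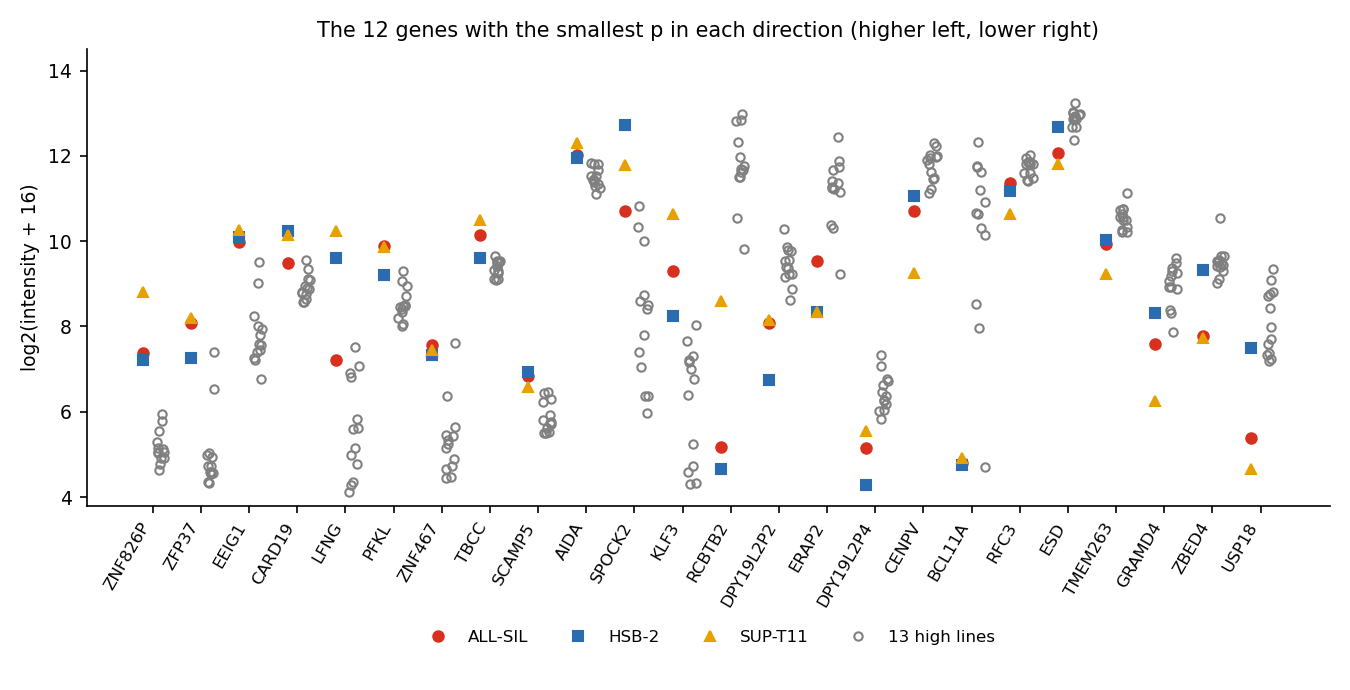
log2(intensity + 16) of the 12 genes per direction that ranked first by p, those higher in the low lines on the left and those lower on the right; coloured points are the 3 low lines and open circles the 13 high lines, 1 point per array. Coloured points and circles are fully apart for ZNF826P and RCBTB2, the 2 genes called, and in several of the others, such as EEIG1 and CENPV, by a smaller step.

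The 8 genes whose log2 levels followed 203132_at most closely over the 16 lines, by Pearson's r, were RCBTB2, DPY19L2P2, ARHGAP33, DPY19L2P4, ARRDC3-AS1, GPR180, TMEM168 and PGC, and the 4 most opposed were DPP7, ZNF826P, LINC02458 and UFSP1. The likeness rested mainly on the 3 low lines. Within the 13 high lines r with RB1 was 0.26 for RCBTB2, 0.53 for DPY19L2P2, 0.46 for ARHGAP33 and 0.17 for DPY19L2P4. It was -0.35 for GPR180 and -0.30 for TMEM168, where the sign turned, and -0.17 for ZNF826P. These values describe 13 arrays and carry no test.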

How the data were processed

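Each of 16 T-ALL cell lines contributed 1 Affymetrix U133 Plus 2.0 array, per the labels. The authors deposited intensity values on a linear scale for 54675 probe sets; for their software, background correction and scaling the sources used here give nothing, and no further normalization was applied (array medians 37.6 to 45.0). Probe sets were named from the platform annotation: 41097 had 1 gene, 1801 several and 11721 were unlisted. Each of 19775 genes took its probe set with the highest mean. The number of arrays limits the precision.

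The rule's RB1 probe set defined the 3 low and 13 high lines, so RB1 stayed out of every test and count. Genes whose 3rd highest value passed the table median were fitted on log2(intensity + 16) with limma 3.58.1 (trend, robust; R 4.3.3), with Benjamini-Hochberg adjustment over all 13328. Single genes also had an exact permutation test over the 560 choices of 3 lines. The brightness condition on counts of lines outside the high lines was added after the data were seen. The fit was also run on simulated independent normal values, with the SD of the high lines and equal shifts in all 3 low lines. The low lines here differ from each other, so that run does not show how the fit behaves on them. Other steps used Python 3.11.15, pandas 2.3.3, numpy 2.4.6 and matplotlib 3.10.9.

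Members and the 13 gene lists were chosen with earlier results of these data known. Named were members of the RB, cyclin, CDK and apoptosis lists and the neighbours, up to 6 members by size of difference in the other lists, the 12 genes per direction with the smallest p, and the genes most like or unlike RB1. Listed genes without a value were not analysed here. Alternatives covered the pseudocount, scaling, filter, probe set, variance model, an RNA quality covariate and left-out lines.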

Additional observations from a re-analysis of the deposited data

Results flagged for a closer look

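The RB1 probe set 211540_s_at lies outside the measurement that chose the lines. It read 838.2 in ALL-SIL and 1139.3 in HSB-2, against 116.6 to 362.0 in the 13 high lines, although both lines were near the bottom of the scale at 203132_at. A signal above every high line in data that the comparison does not use is why these values are set out here.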

How the results depend on the processing

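RCBTB2 was called lower in all 14 alternatives run (differences of -6.87 to -4.69, limma adjusted p = 0.000178 to 0.0484), and ZNF826P was called higher in all 14 (1.70 to 3.35, highest limma adjusted p = 0.0142). The count of genes called higher, 1, became 2 without LOUCY and ranged from 1 to 2 with a low line left out. It was 2 without ALL-SIL. The count called lower, 1, became 2 with the ACTB ratio as covariate, 2 without LOUCY and 3 when any 1 of the low lines was left out. RCBTB2 was the gene shared by these counts. The G1/S and replication median of -0.14 ranged from -0.26 to 0.037 over the left-out low lines and turned positive, at 0.037, without SUP-T11. The cyclin median of -0.06 became -0.121 with the probe set of highest SD and -0.103 with arrays scaled to a common 75th percentile. Over the left-out low lines it ranged from -0.059 to 0.040 and also turned positive, at 0.040, without SUP-T11. The G2/M median of -0.14 became -0.185 with arrays scaled to a common 75th percentile, -0.085 with the probe set of highest SD and -0.167 without LOUCY, and ranged from -0.183 to -0.074 over the left-out low lines. The median of the neighbours ranged from -0.423 to -0.179. Without SUP-T11 the differences of CDK6, CDKN2A and ITM2B changed sign. Over the left-out low lines they ranged from -4.271 to 0.095 for CDK6, from -1.454 to 1.866 for CDKN2A and from -0.569 to 0.326 for ITM2B. ERAP2 passed without LOUCY (-2.603). The cause of these changes was not tested. The other 304 values of single genes kept their direction and side of the threshold, but 14 of them, in 10 genes, moved by over 1.5 times: ZNF826P (1.698 with a pseudocount of 64, still called), ARL11, ESD, MYBL2, CDK6, CDKN2A, ITM2B, HDAC1, GTF2F2 and CDK8. No paired analysis was possible because each sample is a different line and the labels pair none of them. With 3 low lines, of which SUP-T11 often stood apart, differences shared by all 3 limit what can be called, and signals under the table median of 42.4 are too dim to order.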

Other observations

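Over the 13328 genes tested, 25 genes lay at least 1 log2 unit outside the range of all 13 high lines in at least 2 of the 3 low lines, 13 above and 12 below it, and these are described by that rule without a test. The brightness condition used above was not applied here. PRR5, counted as below, had its lowest high line at 31.5, under the table median. Only ZNF826P and RCBTB2, the neighbour of RB1 described above, lay that far outside in all 3. ALL-SIL and HSB-2, the lines with the lowest 203132_at signal, shared 2 genes above the range and 3 below it apart from these. SH3BP5, an adaptor that binds and inhibits BTK, read 6956 in ALL-SIL and 9548 in HSB-2 but 126 in SUP-T11, against 24.4 to 2448 in the high lines. NSG1, a neuronal endosome protein, read 1654 and 1549 but 26.1 in SUP-T11, against 12.2 to 669.6. SWAP70, a guanine nucleotide exchange factor, read 21.4 and 8.6 but 514 in SUP-T11, against 103 to 950.2. LACTB2 and RHOBTB3 were likewise below the range in both.

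SUP-T11 shared more such genes with ALL-SIL or with HSB-2. KLF2, a factor of T-cell quiescence, read 2833 in ALL-SIL and 9126 in SUP-T11 but 274 in HSB-2, against 9.7 to 1266 in the high lines. ITM2A, a membrane protein of developing T cells, read 361.5 in ALL-SIL and 569.5 in SUP-T11 but 11048 in HSB-2, against 1238 to 17615. IL4R, the interleukin 4 receptor, read 2455 in HSB-2 and 3869.6 in SUP-T11 but 309 in ALL-SIL, against 3.6 to 1129. SMAD7, an inhibitor of TGF-beta signalling, read 417 in HSB-2 and 717 in SUP-T11 but 7.5 in ALL-SIL, against 1.6 to 179. The genes of both paragraphs were named after their values were seen.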
